A study of Mus musculus with 12 samples.

Results

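The genes followed here are 37 interferon response genes, taken by symbol and chosen with earlier results of these data known. Every probe whose gene name in the scanner output is one of these symbols was collected, 56 probes in all. A filter on dim signal kept 50 of them, and the brightest kept probe stood for each gene. All 37 genes were measured and passed that filter, among 20724 genes and unnamed probes tested. The tissue was whole forestomach, the squamous-lined first chamber of the mouse stomach, from adult wild-type C57BL/6J mice. The 4 control samples came from mice given supersaccharin without alcohol. The 4 samples of the second group came from mice that drank 20% alcohol in supersaccharin over 4 weeks. The 4 samples of the third group came from mice given 15% alcohol over 40 weeks, and the labels do not say whether that drink held supersaccharin. No group of mice was kept for 40 weeks without alcohol among these samples. Each array compared forestomach RNA, in Cy5, with Agilent's Universal Mouse Reference RNA, in Cy3, so each value is a log2 ratio to that reference, and no dye was swapped.

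Interferons are secreted when cells meet viral or bacterial nucleic acids or, in the case of interferon gamma, when T and NK cells are activated. Type I and type III interferons act through JAK kinases on a complex that contains STAT2 and IRF9 and binds the interferon-stimulated response element (ISRE). Interferon gamma acts on the gamma-activated site (GAS). The genes switched on include sensors of foreign RNA and DNA, the transcription factors of the pathway itself, ubiquitin-like modifiers, antiviral effectors, GTPases that attack membrane-enclosed microbes, and the proteasome subunits and transporter that supply peptides to MHC class I.

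Promoter stretches of 6 members are shown with the elements found in them. Isg15, Ifit1, Oas1a and Bst2 were over 1 (log2) above the other 3 arrays of the group in 4-week replicate 2, and Gbp2 and Irf1, which were not, are set beside them. RefSeq promoter windows on build GRCm38.p6, 250 bases before to 50 bases after each start, were found for 28 of the 37 genes; those not in that table were Zbp1, Mx1, Dhx58, Oas2, Parp14, Iigp1, Usp18, Rtp4 and Mx2. Both motifs were searched on both strands, the ISRE core, a pair of GAAA repeats 2 bases apart, and the GAS as TTCNNNGAA, and overlapping matches were counted. Stretches of 6 promoters follow, in the direction of transcription, with the ISRE core in capitals in Isg15, Ifit1, Oas1a, Bst2 and Gbp2 and the GAS in capitals in Irf1.
Isg15: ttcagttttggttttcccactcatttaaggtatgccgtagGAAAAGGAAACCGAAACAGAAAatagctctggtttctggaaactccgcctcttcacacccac
Ifit1: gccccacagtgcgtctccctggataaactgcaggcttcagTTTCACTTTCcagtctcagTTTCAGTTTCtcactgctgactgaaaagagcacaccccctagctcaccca
Oas1a: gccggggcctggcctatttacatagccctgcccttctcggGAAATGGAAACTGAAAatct
Bst2: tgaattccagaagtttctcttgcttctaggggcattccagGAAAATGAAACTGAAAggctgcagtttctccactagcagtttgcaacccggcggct
Gbp2: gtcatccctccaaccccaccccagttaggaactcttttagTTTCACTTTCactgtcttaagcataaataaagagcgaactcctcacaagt
Irf1: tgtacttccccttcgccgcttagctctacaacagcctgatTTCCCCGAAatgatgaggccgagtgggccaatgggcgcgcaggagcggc
These stretches lie at chr4:156200835-156200936 on the minus strand (Isg15), chr19:34640745-34640853 on the plus strand (Ifit1), chr5:120907526-120907585 on the minus strand (Oas1a), chr8:71537547-71537642 on the minus strand (Bst2), chr3:142620564-142620653 on the plus strand (Gbp2) and chr11:53769884-53769972 on the plus strand (Irf1). All end before the first transcribed base. Isg15 held 3 overlapping matches of the ISRE core, the first beginning at position -78 from the start. Oas1a and Bst2 each held 2 overlapping matches, and in Bst2 a GAS that is not capitalised overlaps the first of them. Ifit1 held 2 separate matches on the opposite strand, beginning at positions -104 and -85.

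At least 1 ISRE core was found in 16 of the 28 promoters, against 3.99% of all 27025 genes with a window (3.44% of 32851 windows). A GAS was found in 8 of the 28, against 9.55% of all genes (8.3% of windows). Both motifs were present in Oas1a, Bst2, Eif2ak2 and Igtp. Neither was present in these windows of Irf9, Irf7, Xaf1, Oasl1, Oasl2, Ifi44, Psmb9 and Tap1. A match is a string of letters in this window and is not a measurement of binding.

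**Figure D1:**
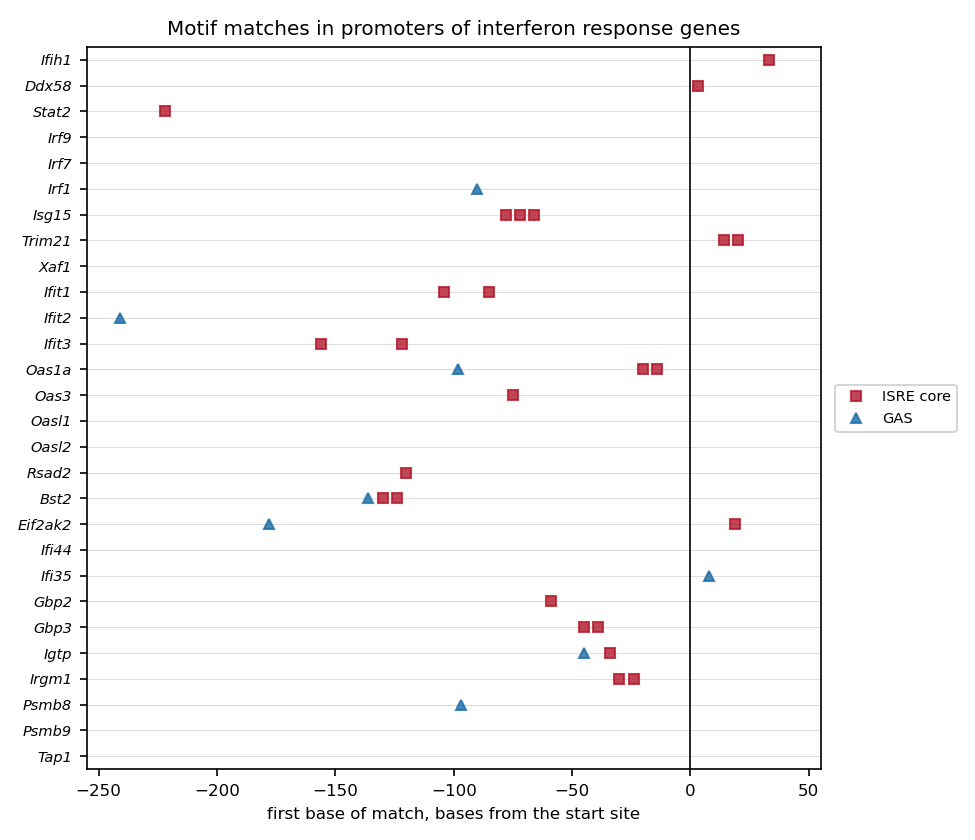
Position of the first base of each match to the ISRE core (squares) and the GAS (triangles) in 28 promoters, on an axis in bases from the start site (0) that covers 250 bases before to 50 bases after it; each row is a gene. A row without a symbol had neither motif in the window, as for Irf7, Oasl1 and Ifi44.

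Some samples stood apart before any gene of the list was considered. Against the mean of the 3 remaining arrays of the group, 14 of 17 glandular stomach genes exceeded a log2 difference of 1 in control replicate 4 and 13 of 17 did so in 4-week replicate 2. The same held for 19 of 19 pancreas acinar genes in control replicate 3 and 12 of 19 in 4-week replicate 2. Of all genes, 4.34% were that far above in control replicate 4, 2.27% in control replicate 3 and 5.62% in 4-week replicate 2. The Y-linked genes Ddx3y and Eif2s3y were at -4.26 and -5.67 in 40-week replicate 3 and at -4.02 and -6.28 in 40-week replicate 4, and at 0.49 to 1.49 and 2.61 to 3.17 on the other arrays, while the labels give no sex. Xist, a transcript of the X chromosome, was 2.63 and 2.11 above the control mean in 40-week replicates 3 and 4. On the other arrays it lay -0.25 to 1.175 from that mean. Controls were hybridised on 1 slide and the 4-week samples on another, so slide and treatment cannot be told apart there. Log2 ratios of all probes had a smaller standard deviation on the 40-week arrays (1.02 to 1.08) than on the others (1.48 to 1.73). The 12 squamous epithelium genes, which include the defining keratins and p63, lay at medians of -0.25 to 0.31 from the control mean in controls, -1.47 to -0.67 at 4 weeks and -2.02 to -1.76 at 40 weeks.

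The interferon response genes did not separate the 3 groups; they were high on 1 control array, 1 array at 4 weeks and 2 arrays at 40 weeks. 4-week replicate 2 held the highest of the 12 values for 30 of the 37 genes, while it held the highest value for 10.5% of all genes. Relative to the mean of the 4 controls, the median of the 37 genes was 1.72 (log2) on that array and -0.77 to -0.28 on the other 4-week arrays. Control replicate 4 had a median of 0.84, and the other controls had -0.46 to -0.27. Among the 40-week arrays the medians were -0.39 and -0.28 in replicates 1 and 2 and 0.54 and 0.81 in replicates 3 and 4. The medians of all genes on the 12 arrays lay between -0.12 and 0.03.

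**Figure D2:**
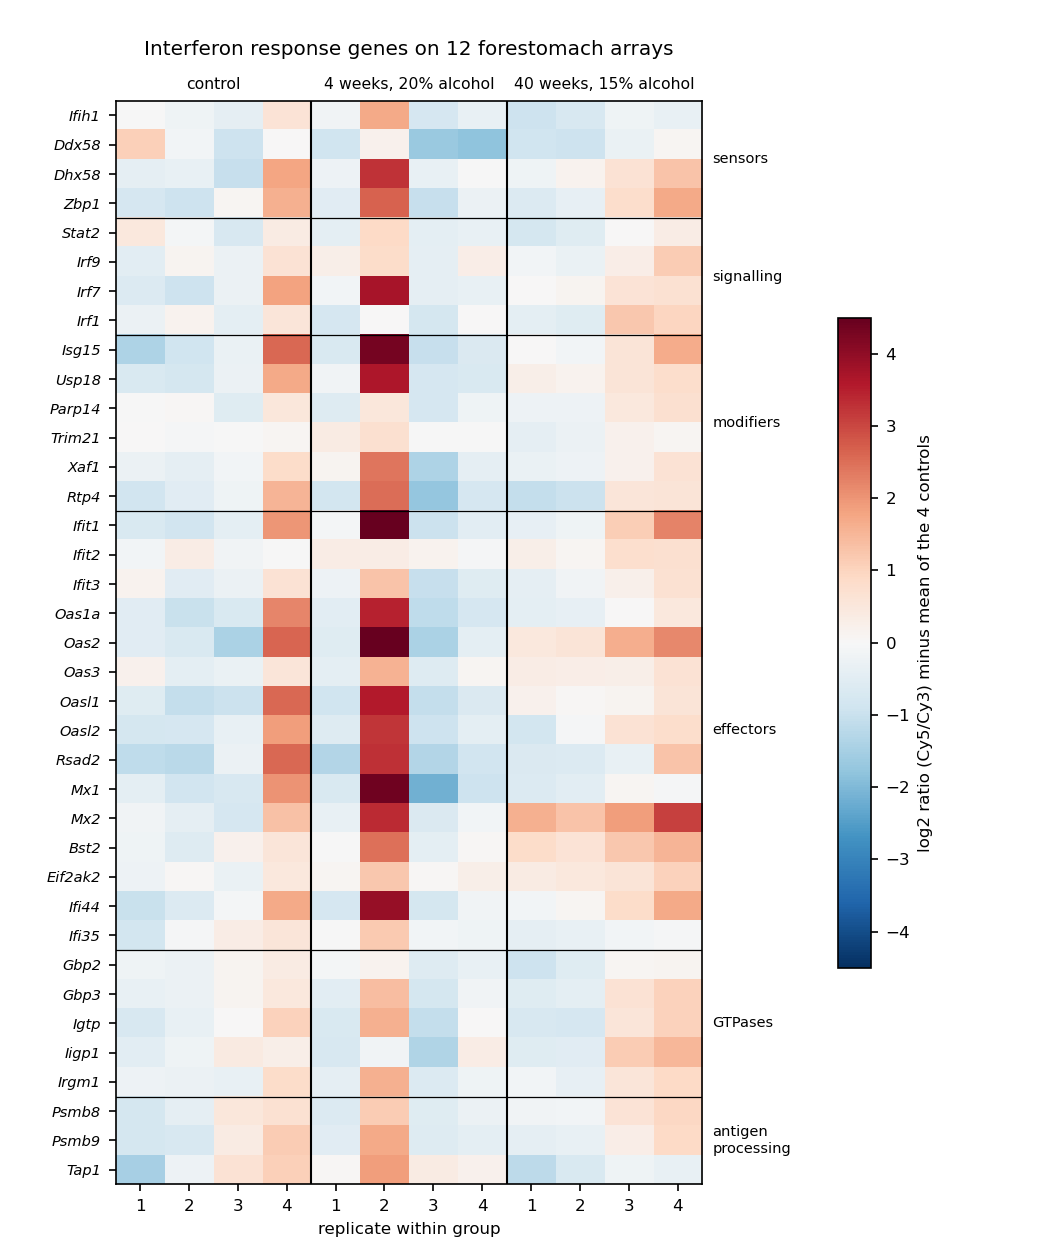
Log2 ratio of each of the 37 interferon response genes on each of the 12 arrays minus the mean of the 4 controls, as colour from -4.5 (blue) to 4.5 (red); rows are genes by role and columns are replicates by group. 4-week replicate 2 is red for most rows (median 1.72), with control replicate 4 (0.84) and 40-week replicates 3 and 4 (0.54 and 0.81) next.

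Compared with the mean of the other 3 arrays of its own group, 4-week replicate 2 was higher for 37 of 37 genes and over 1 on the log2 scale higher for 31, where 5.62% of all genes were that far above. Control replicate 4 was higher for 36 of 37 and over 1 higher for 20 (4.34% of all genes), with Ifit2 the exception at -0.04. 40-week replicate 4 was over 1 higher for 14 (1.2% of all genes), and 40-week replicate 3 for 2 (0.738% of all genes). 4-week replicate 3 was over 1 lower for 22 (3.27% of all genes), a comparison whose other 3 arrays include the high replicate 2. Both 40-week replicates 3 and 4 lay above both replicates 1 and 2 for 35 of the 37 genes, all but Oas3 and Oasl1, and for 23.6% of all genes. Replicates 3 and 4 are also those that differed in Y-linked genes and Xist, and these differences cannot be told apart within the group.

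Replicates of a group differed more for these genes than for most. The median standard deviation over the 4 arrays was 0.76 in controls, 1.10 at 4 weeks and 0.52 at 40 weeks for the 37 genes, and 0.29, 0.26 and 0.16 for all genes. The standard deviation of 20, 30 and 27 of the 37 genes exceeded the 90th percentile of all genes in the respective groups. The labels do not state that each replicate is another animal, so every p-value here measures only the spread among samples and could be partly technical. In bulk tissue, fewer cells of a type and less RNA per cell cannot be told apart.

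Among the sensors, Dhx58 and Zbp1 had the widest range over the arrays. Dhx58 (LGP2, a regulator of the RNA sensors RIG-I and MDA5) had log2 ratios of -1.74, -1.68, -2.38 and 0.46 in control replicates 1 to 4, -1.55, 1.92, -1.68 and -1.36 at 4 weeks, and -1.55, -1.17, -0.69 and -0.07 at 40 weeks. Zbp1, a sensor of left-handed nucleic acid, had -1.34, -1.50, -0.48 and 1.05 in controls, -1.07, 2.10, -1.62 and -0.82 at 4 weeks, and -1.19, -0.92, 0.22 and 1.14 at 40 weeks. Both were highest in 4-week replicate 2, at 10.9-fold and 9.64-fold the mean of the other 3 arrays of the group, and the 3 groups overlapped for both. Ifih1 (MDA5, a sensor of long double-stranded RNA) was 4.36-fold the other 3 arrays in 4-week replicate 2 and 1.76-fold in control replicate 4. Ddx58 (RIG-I, a sensor of RNA ends) was highest in control replicate 1, at 0.98, and reached 0.11 in 4-week replicate 2 against -0.98, -1.76 and -1.91 on the other 4-week arrays.

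Of the transcription factors, Irf7, the factor that amplifies type I interferon production, varied most. Its log2 ratios were -2.73, -3.05, -2.39 and -0.29 in controls, -2.25, 1.61, -2.52 and -2.43 at 4 weeks, and -2.11, -1.98, -1.50 and -1.42 at 40 weeks. 4-week replicate 2 was 16.2-fold the other 3 arrays of its group and control replicate 4 was 5.37-fold, while all 40-week values lay between these and the low arrays. Irf1, a factor induced by interferon gamma, followed another order, with -0.64, -0.21, -0.81 and 0.17 in controls, -1.11, -0.37, -1.16 and -0.36 at 4 weeks, and -0.82, -0.90, 0.86 and 0.59 at 40 weeks. Its highest values were in 40-week replicates 3 and 4, and 4-week replicate 2 was at the control mean (0.00). Stat2 and Irf9, parts of the ISRE-binding complex, were 2.46-fold and 1.73-fold the other arrays in 4-week replicate 2, and Irf9 was highest in 40-week replicate 4 at 1.23.

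The ubiquitin-like modifier Isg15 and Usp18, the protease that removes it and restrains the interferon receptor, moved widely. Isg15 had log2 ratios of -3.36, -2.86, -2.28 and 0.63 in controls, -2.66, 2.34, -3.02 and -2.61 at 4 weeks, and -1.96, -2.08, -1.37 and -0.30 at 40 weeks. Usp18 had -3.47, -3.57, -3.04 and -1.08 in controls, -2.94, 0.84, -3.56 and -3.46 at 4 weeks, and -2.54, -2.64, -2.21 and -1.98 at 40 weeks. For Isg15, 4-week replicate 2 was 34.3-fold and control replicate 4 was 11.02-fold the other 3 arrays of the group, and for Usp18 17.9-fold and 4.87-fold. The Isg15 probe, at chr4:155573922-155573981 on the minus strand of mm9, the build of the array files, shows the same in the unadjusted forestomach channel. Its Cy5 signal above local background was 244, 548, 857 and 5106 on the control arrays and 329, 25764, 237 and 176 on the 4-week arrays, while the reference channel ranged from 5100 to 8175. Rtp4, a receptor-transporting protein, and the apoptosis factor Xaf1 were 12.4-fold and 7.93-fold the other arrays in 4-week replicate 2. The mono-ADP-ribosyltransferase Parp14 and the ubiquitin ligase and antibody receptor Trim21 were 2.03-fold and 1.53-fold.

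**Figure D3:**
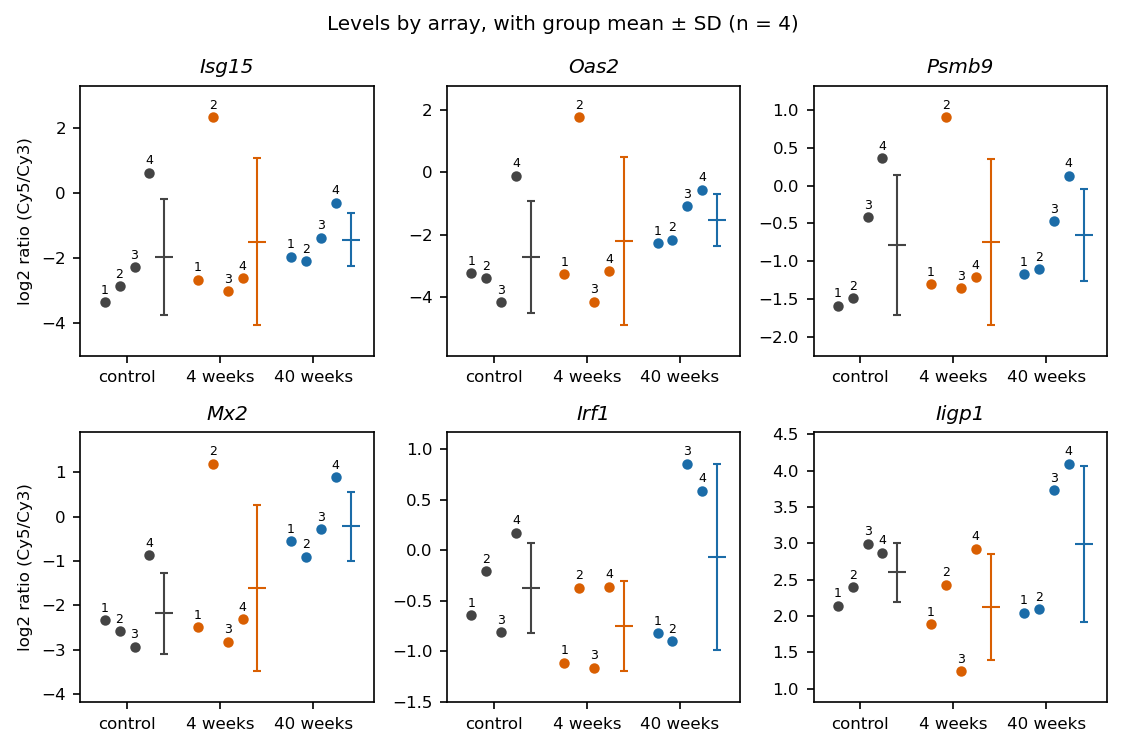
Log2 ratio (Cy5 over Cy3) of 6 genes in the control, 4-week and 40-week groups; each point is an array, numbered by replicate, and the bar beside it is the group mean ± SD (n = 4). Isg15, Oas2, Psmb9 and Mx2 are highest in 4-week replicate 2, at 2.34, 1.77, 0.91 and 1.19, while Irf1 and Iigp1 are highest in 40-week replicates 3 and 4.

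The 15 antiviral effectors had the highest median in 4-week replicate 2, at 3.29 above the control mean, next to 2.47 for modifiers, 2.19 for sensors, 1.69 for antigen processing, 1.40 for GTPases and 0.86 for signalling. In control replicate 4 these medians were 1.72, 1.19, 1.11, 1.07, 0.47 and 0.59. Oas2, an enzyme that makes the 2-5A messenger activating RNase L, had log2 ratios of -3.24, -3.40, -4.17 and -0.11 in controls, -3.27, 1.77, -4.15 and -3.18 at 4 weeks, and -2.27, -2.16, -1.09 and -0.55 at 40 weeks. It was 39.4-fold the other arrays in 4-week replicate 2 and 11.2-fold in control replicate 4. Mx1, a dynamin-like GTPase that blocks influenza virus and whose gene carries a deletion in C57BL/6 mice, had -0.59, -1.01, -0.85 and 1.90 in controls, -0.83, 4.24, -2.30 and -1.09 at 4 weeks, and -0.74, -0.61, -0.03 and -0.18 at 40 weeks. Its probe was dim, well above background on 3 of 4 control arrays and on 1 of 4 at 4 weeks, so no fold is given; the other 36 genes were well above background on all 8 arrays with scanner files.

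Other effectors were high on the same array. Ifit1, which binds RNA lacking a host cap, was 32.1-fold the other 3 arrays in 4-week replicate 2, Ifi44 22.4-fold, Rsad2 (viperin, which makes a chain-terminating nucleotide) 22.05-fold, Oasl1 21.9-fold, Oas1a 19.1-fold, Oasl2 14.5-fold and Mx2 13.3-fold. In control replicate 4 the corresponding values were 6.24, 4.89, 10.9, 10.8, 7.56, 5.72 and 3.36-fold. Bst2 (tetherin, which holds budding virus at the membrane) was 6.06-fold in 4-week replicate 2, Ifit3 3.66-fold, Oas3 3.65-fold, Ifi35 2.45-fold and Eif2ak2 (PKR, the kinase that stops translation on double-stranded RNA) 2.12-fold. Ifit2 varied little in any group, between -1.59 and -0.68 on all 12 arrays, and was 1.14-fold the other arrays in 4-week replicate 2.

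The interferon-induced GTPases followed both orders. Igtp (Irgm3) had log2 ratios of -0.09, 0.28, 0.65 and 1.67 in controls, -0.07, 2.21, -0.43 and 0.65 at 4 weeks, and -0.10, -0.13, 1.16 and 1.66 at 40 weeks. Iigp1 (Irga6) had 2.14, 2.40, 3.00 and 2.87 in controls, 1.89, 2.43, 1.24 and 2.93 at 4 weeks, and 2.05, 2.10, 3.73 and 4.10 at 40 weeks. Igtp was highest in 4-week replicate 2, while Iigp1 was highest in 40-week replicates 3 and 4 and in 4-week replicate 2 lay 0.17 below the control mean. Irgm1 and Gbp3 were 3.98-fold and 3.66-fold the other arrays in 4-week replicate 2, and Gbp2 was 1.41-fold there.

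The antigen-processing members Psmb8, Psmb9 and Tap1 were high in 4-week replicate 2 and control replicate 4. Psmb9 (LMP2, an immunoproteasome subunit) had log2 ratios of -1.59, -1.49, -0.42 and 0.37 in controls, -1.31, 0.91, -1.36 and -1.21 at 4 weeks, and -1.18, -1.10, -0.47 and 0.13 at 40 weeks. Tap1, a subunit of the transporter that carries peptides into the endoplasmic reticulum, had -2.30, -1.01, -0.14 and 0.28 in controls, -0.73, 1.10, -0.43 and -0.59 at 4 weeks, and -1.96, -1.48, -0.998 and -1.13 at 40 weeks. 4-week replicate 2 was 4.59-fold the other 3 arrays for Psmb9, 3.21-fold for Tap1 and 3.09-fold for Psmb8 (LMP7). Unlike Psmb9, Tap1 was lower on all 40-week arrays than on all 4-week arrays. Tap1 lay at -0.21 and -0.34 from the control mean in 40-week replicates 3 and 4. Of 13 further class I antigen processing genes, 3 were over 1 above the other 3 arrays in 4-week replicate 2 (5.62% of all genes). On each other array 0 were. The median of those 13 genes was 0.27 above the control mean in 4-week replicate 2 and 0.21 in control replicate 4. It was higher in 40-week replicates 3 and 4, at 0.41 and 0.32.

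A second probe gave the same picture where one was kept. Of 13 further probes, for 9 genes, 13 had the same sign as the probe used in 4-week replicate 2 against the other 3 arrays and 13 in control replicate 4. In the 40-week comparison with controls 8 of the 13 had the same sign, and 3 further Ddx58 probes had changes of 0.36, 0.44 and 0.14 against -0.51 for the probe used, so no direction is given for Ddx58 there. By promoter, the median above the other 3 arrays in 4-week replicate 2 was 1.93 for the 16 genes with an ISRE core, 1.94 for the 12 without and 3.63 for the 9 not in the promoter table. In control replicate 4 these medians were 0.78, 1.27 and 2.16, and the differences between these sets of genes were not tested.

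Transcripts of other organs and cells moved on the same arrays, and some moved on other arrays too. Relative to the control mean, the glandular stomach list had medians of 2.45 in control replicate 4 and 1.34 in 4-week replicate 2, and -1.38 to -0.19 on the other arrays. The intestine list had 2.21 and 1.12 on those arrays and -1.57 to -0.12 elsewhere. The glandular stomach list was highest in control replicate 4 and the interferon response genes in 4-week replicate 2. Over all genes, 4-week replicate 2 correlated at 0.9445 with control replicate 4 and at 0.884 to 0.902 with the other 4-week arrays. Control replicate 3, where the pancreas list was at 3.49, had an interferon median of -0.27. In 40-week replicates 3 and 4, where the glandular stomach list was at -1.06 and -0.79, the B cell list was at 0.99 and 1.65 and the plasma cell list at 0.51 and 1.44, against -0.54 to 0.34 and -0.36 to 0.40 on the other arrays. Cd79b, a defining B cell marker, had log2 ratios of -0.97 and -1.22 in those replicates, against -2.65 and -2.76 in 40-week replicates 1 and 2. The neutrophil list was at -0.57 and -0.95 in replicates 3 and 4, against -2.12 and -1.90 in replicates 1 and 2 and -0.20 to 0.49 in controls. The T cell list was at 0.19 and 0.65, against 0.04 and -0.10. In replicate 4, 5 of its 11 genes were over 1 above the other 3 arrays (1.2% of all genes). That list was highest in control replicate 3, at 0.74, again with 5 of 11 genes over 1 above (2.27% of all genes). Of the defining T cell markers, Cd3d was at 0.98 and 1.87 in 40-week replicates 3 and 4, against 0.31 and -0.19 in replicates 1 and 2. Cd3g was at -2.15 and -1.51, against -2.67 and -2.84, and Cd3e at 0.06 and 0.27, against 0.11 and 0.08. Of the defining gastric markers, the proton pump subunits Atp4a and Atp4b were 4.40 and 3.57 (log2) above the other 3 arrays in control replicate 4 and 2.42 and 3.08 above them in 4-week replicate 2. The part of these cells, and of the difference in Y-linked genes and Xist, in the interferon values was not tested.

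**Figure D4:**
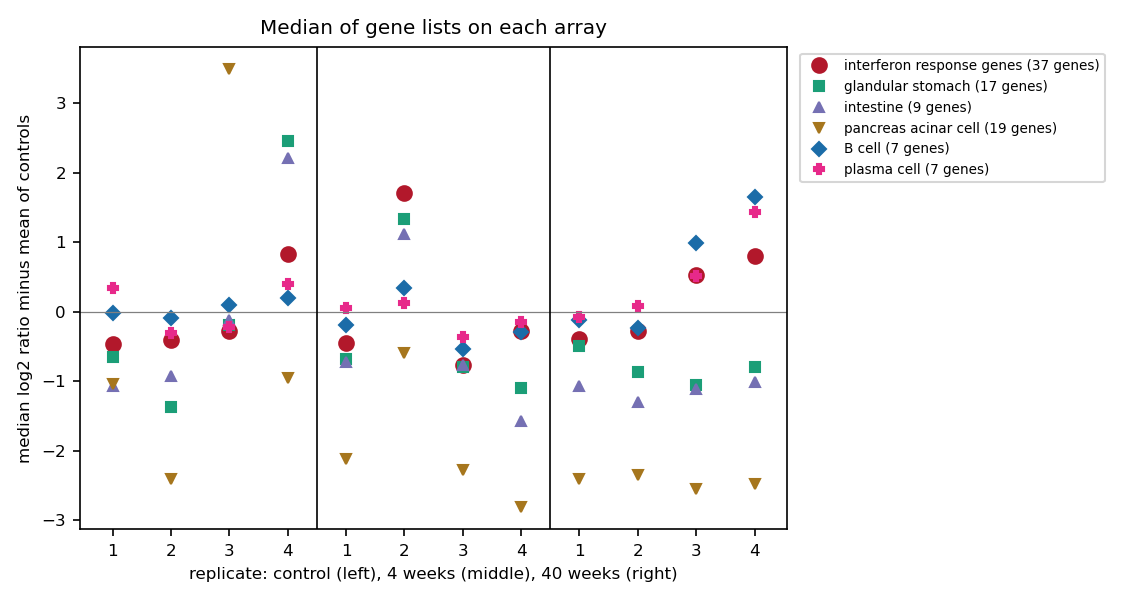
Median log2 ratio minus the control mean on each of the 12 arrays for the 37 interferon response genes (circles) and for marker lists of glandular stomach, intestine, pancreas acinar cells, B cells and plasma cells. The glandular stomach and intestine lists are high in control replicate 4 (2.45 and 2.21) and 4-week replicate 2 (1.34 and 1.12), and the B cell list in 40-week replicates 3 and 4 (0.99 and 1.65).

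The first comparison asked whether 4 weeks of alcohol changed these genes. None of the 37 was called by limma at an adjusted p under 0.05, and none had an unadjusted p under 0.05, where 222 of all 20724 genes were called (1.07%) and 17.9% had such a p. The median change of the 37 genes was 0.21 (all genes -0.02), with 26 higher and 11 lower, and every one of them overlapped between the groups, where 5.51% of all genes lay wholly higher and 6.31% wholly lower. The changes ran from -0.69 ± 0.39 (SE, n = 4 against 4) for Ddx58 to 0.77 ± 1.08 for Ifit1, with limma adjusted p-values of 0.392 to 0.984. For Isg15 the difference was 0.50 ± 1.23 (adjusted p = 0.869). Without 4-week replicate 2 the median turned to -0.43 with 5 genes higher, and without control replicate 4 it became 0.41; no member was called in either case.

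The second comparison set 40 weeks of alcohol against the same controls in the deposited values. None of the 37 genes was called by limma and 3 had an unadjusted p under 0.05, while 8817 of all genes were called (42.5%) and 50.9% had such a p. The median change was 0.23 (all genes -0.09), with 26 higher and 11 lower. Those 3 genes were Mx2, Ifit2 and Eif2ak2. The array values of these genes and of Bst2 are given because of these results. Mx2 had log2 ratios of -2.33, -2.58, -2.94 and -0.87 in controls, -2.50, 1.19, -2.82 and -2.31 at 4 weeks, and -0.56, -0.90, -0.28 and 0.89 at 40 weeks. Of the 40-week values only that of replicate 2 did not lie above every control, and the difference was 1.97 ± 0.80 (limma adjusted p = 0.0660). Ifit2 had -1.56, -1.12, -1.59 and -1.46 in controls, -1.08, -1.09, -1.27 and -1.49 at 4 weeks, and -1.17, -1.36, -0.68 and -0.72 at 40 weeks, a difference from controls of 0.45 ± 0.18 (adjusted p = 0.0623). Eif2ak2 had -1.59, -1.29, -1.65 and -0.86 in controls, -1.27, -0.13, -1.29 and -1.09 at 4 weeks, and -0.96, -0.87, -0.75 and -0.33 at 40 weeks, a difference of 0.62 ± 0.27 (adjusted p = 0.0816). For both genes the 40-week and control values overlapped.

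Bst2 alone lay higher on all 40-week arrays than on all controls, as did 18.5% of all genes. Its log2 ratios were -2.40, -2.78, -2.02 and -1.65 in controls, -2.23, 0.26, -2.64 and -2.14 at 4 weeks, and -1.38, -1.61, -1.002 and -0.68 at 40 weeks. The difference from controls was 1.04 ± 0.53 (limma adjusted p = 0.132). No member lay wholly lower (23.9% of all genes).

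Several of these results turned on the arrays with transcripts of other organs and on the scale of the 40-week columns. Without control replicates 3 and 4 and 4-week replicate 2, which leaves 2 controls and 3 arrays at 4 weeks, 10 of the 37 genes were called higher at 40 weeks than in controls, where 15.8% of all genes were. Control replicate 4 and 4-week replicate 2 are also the arrays where the interferon response genes were highest in their groups (medians 0.84 and 1.72), so leaving them out lowers the means and the spread of those groups for these genes. Those called were Mx2 by 2.24 ± 0.41 (limma adjusted p = 0.00290), Bst2 by 1.42 ± 0.26 (0.00317), Irf7 by 1.14 ± 0.22 (0.00366), Usp18 by 1.18 ± 0.23 (0.00383), Oasl1, Isg15, Oas2, Eif2ak2, Ifi44 and Psmb8. In the 2 groups alone, without the spread of the 4-week arrays, Mx2, Bst2 and Eif2ak2 were called (adjusted p = 0.0135, 0.0162 and 0.0410), where 8859 of all 20724 genes were. When every array was scaled to 1 spread, none of these was called, Mx2 differed by 1.62 ± 0.73 (adjusted p = 0.103), Ifit2 by -0.00 ± 0.19 and the median of the 37 genes was -0.00. On that scale Iigp1 was the gene called, at 1.59 ± 0.56 (adjusted p = 0.0433), where the unscaled difference was 0.39 ± 0.49 (adjusted p = 0.547). Of all genes 7731 were called on that scale. No control was kept for 40 weeks, so age and drinking time cannot be told apart. In addition, 40-week replicates 3 and 4 differed in Y-linked genes and Xist, as given above.

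The third comparison set the alcohol groups against each other. Again none of the 37 genes was called by limma, and 1 had an unadjusted p under 0.05, while 8602 of all genes were called (41.5%; 18.3% higher and 23.2% lower) and 50.02% had such a p. The median difference of 40 weeks minus 4 weeks was 0.06 (all genes -0.08), with 20 higher and 16 lower. Tap1 was lower on all 40-week arrays, as were 25.3% of all genes, by 1.23 ± 0.54 (a difference of -1.23, limma adjusted p = 0.0857), and it was called at -1.65 ± 0.49 (adjusted p = 0.0188) after scaling to 1 spread. None lay wholly higher (20% of all genes). Without control replicates 3 and 4 and 4-week replicate 2 the median was 0.70 and 14 of the 37 genes were called higher, where 19.9% of all genes were. Mx2 then differed by 2.33 ± 0.36 (adjusted p = 0.000798), Oasl1 by 1.11 ± 0.19 (0.00117) and Bst2 by 1.17 ± 0.23 (0.00303). Leaving out 4-week replicate 2 alone gave the same median and 3 calls, Mx2, Bst2 and Oas3, where 7999 of all genes were called. Both 40-week comparisons use the same 4 arrays, so they are not independent of each other.

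**Figure D5:**
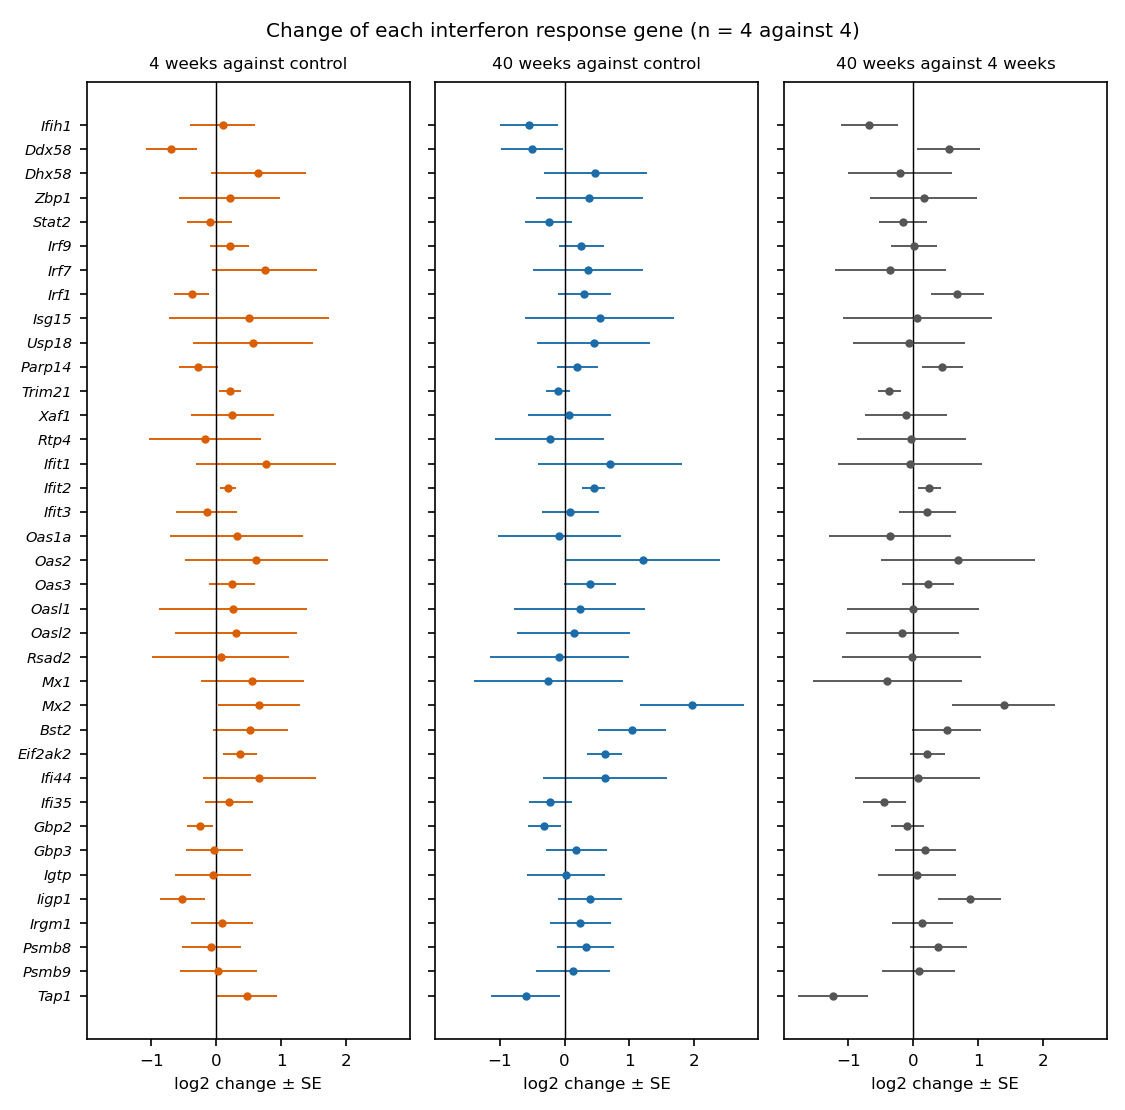
Log2 change ± SE of each of the 37 genes for 4 weeks against control, 40 weeks against control and 40 weeks against 4 weeks (n = 4 against 4, limma); a point right of the line is higher in the first-named group. Among the changes plotted the largest is that of Mx2 at 40 weeks against control (1.97 ± 0.80), followed by Mx2 (1.40 ± 0.80) and Tap1 (-1.23 ± 0.54) at 40 weeks against 4 weeks, and no point passed an adjusted p under 0.05.

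Other genes of the pathway were read from the same fits. The ligands measured were Ifng, Ifna2, Ifna5 and Ifnl3; Ifng had log2 ratios of 0.50 to 1.97 in controls, -3.54 to 0.63 at 4 weeks and 0.36, 0.34, 1.68 and 2.38 at 40 weeks. At 40 weeks Ifna5 fell by 0.89 ± 0.21 (limma adjusted p = 0.00482) and Ifnl3 by 0.69 ± 0.14 (0.00234) against controls, and Ifna2 fell by 0.59 ± 0.19 (0.0276), 3 of the 4 ligands measured, where 23.9% of all genes were called lower. None of the 15 receptors, kinases and STATs measured was over 1 above the other 3 arrays of its group on any array. Jak2, a kinase of the interferon gamma receptor, rose by 0.91 ± 0.13 at 40 weeks against controls (adjusted p = 0.000198) and Ifnar2, a chain of the type I receptor, by 0.51 ± 0.16 (0.0265), while Ifngr1, a chain of the interferon gamma receptor, fell by 0.86 ± 0.23 (0.00954). These were the 3 called of the 15 (2 higher and 1 lower), where 42.5% of all genes were called. At 4 weeks 0 of the 15 were called. Ifna5 was at 0.56 to 1.16 in controls and -0.26 to 0.19 at 40 weeks, and Ifnl3 at 0.37 to 0.84 and -0.23 to 0.15. The smaller spread of the 40-week columns given above applies to all these 40-week changes of ligands, receptors and kinases. Their changes after scaling to 1 spread are not given.

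Of 43 further interferon-induced genes, 19 were over 1 above the other 3 arrays in 4-week replicate 2 (5.62% of all genes) and 12 in control replicate 4 (4.34%). In 40-week replicates 4 and 3, 10 and 3 of them were (1.2% and 0.738% of all genes). Ddx60, an RNA helicase named after its values were seen, had log2 ratios of -0.31, -0.36, -1.12 and 3.58 in controls. It had -1.11, 5.20, -0.81 and -1.47 at 4 weeks, and -0.83 to -0.03 at 40 weeks. Between groups, 1 of the 43 was called higher at 4 weeks, where 0.265% of all genes were. That gene was Ifitm2, which hinders virus entry, at 0.65 ± 0.12 (limma adjusted p = 0.0437). With scaling to 1 spread, median centring or the replicate block, 0 of all genes were called at 4 weeks. At 40 weeks 10 were higher and 4 lower than in controls, where 18.6% of all genes were called higher and 23.9% lower. Ifitm2 rose by 0.70 ± 0.12 (adjusted p = 0.000605), Ifitm3 by 0.66 ± 0.13 (0.00157) and the ubiquitin ligase Trim25 by 0.565 ± 0.14 (0.00669), and Ifitm1 fell by 1.19 ± 0.17 (0.000187). Ifitm1 was at 3.02 to 3.57 in controls and 1.93 to 2.26 at 40 weeks, where the columns had the smaller spread given above. Changes after scaling to 1 spread are not given for these 43 genes. The chemokine Cxcl10, named after its values were seen, was at -3.07 to -1.51 in controls, -2.75 to -2.28 at 4 weeks and -1.73, 0.16, 2.94 and 2.54 at 40 weeks, a rise of 3.04 ± 0.82 (adjusted p = 0.0112). The chemokine Cxcl9, also named after its values were seen, fell by 2.07 ± 0.68 (adjusted p = 0.0287). Its log2 ratios were 3.33 to 6.09 in controls and 1.19 to 3.52 at 40 weeks, to which the smaller spread also applies. The guanylate-binding proteins Gbp4, Gbp5 and Gbp6, also named after their values were seen, rose by 1.15 ± 0.30, 1.26 ± 0.38 and 1.62 ± 0.49 (adjusted p = 0.00909, 0.0194 and 0.0191), while the members Gbp2 and Gbp3 did not pass the test (-0.31 ± 0.25 and 0.18 ± 0.47).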

How the data were processed

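The 37 genes and the marker lists were chosen with earlier results of these data known. For the 8 control and 4-week arrays, Feature Extraction scanner output was used. Mean spot and median local background signals are intensity on a linear scale, and the probe positions are on mm9, per the file headers. Deposited flags of 0 or 1, other than measurements, mark spots well above background. Feature Extraction is version 10.7.3.1 in the file headers and 9.1 in the submitters' processing notes. Scanner output of the 40-week arrays was not analysed here, and the authors' deposited value table of log2 ratios (Cy5 over Cy3) was used for them. Scale and direction of that table were taken from its match to the scanner log2 ratios on the 8 shared arrays (Pearson correlations over probes 0.974 to 0.983). The making of the 40-week columns could not be checked. Column medians were 0.00 to 0.07, and whether the authors centred the columns is not given in the sources used here.

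With limma 3.58.1 in R 4.3.3, the background was corrected by normexp (offset 50) and each array was normalised by loess, leaving out 1639 control spots and 183 to 268 outlier spots per array, of 45018. Saturation affected 0 Cy5 spots. In Cy5, 64.8% to 78.8% of spots were well above background and the median signal above local background was 40.1 to 142. Precision is limited by the number of arrays. A probe was kept if well above background in Cy5 on at least 3 of 4 arrays of a group, which left 30455 of 41174 probes, and the brightest probe stood for each of 20724 genes. Probe names came from the files, updated through accession in RefSeq's table where possible. The 4-week comparison was fitted on the scanner log2 ratios of 8 arrays, and both 40-week comparisons on the deposited table of 12, with lmFit and eBayes. Adjusted p-values are Benjamini-Hochberg values over all genes, called under 0.05. Levels array by array are from the deposited table.

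All members are named, and every array's value is given for the 2 members of each role with the widest range, for members called in a comparison, and for others said to be chosen after their values were seen. From other lists, genes called in a comparison are named, at most 4 per list by adjusted p. The fits were tried on simulated data with known changes and independent noise for each gene, so genes that move together on an array were not covered. Alternatives covered background correction, scaling, the filter, the probe rule, weights, the replicate block and left-out arrays.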

Additional observations from a re-analysis of the deposited data

Results flagged for a closer look

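All 37 interferon response genes and their median were examined in each of the 3 groups of 4 arrays, 114 groups of values in all. In 24 of them 1 value lay far from the other 3. Dixon's ratio, the gap to the nearest array over the whole range of the group, was above its 95% critical value there. About 1 in 20 independent groups gives such a ratio by chance, but the genes share these arrays, so the ratios are not independent and that rate does not say how many to look for here. In 4-week replicate 2 the ratio was 0.912 for Dhx58, 0.920 for Stat2, 0.935 for Irf7, 0.923 for Isg15, 0.860 for Usp18, 0.842 for Ifit1, 0.855 for Oas1a, 0.837 for Oas2, 0.907 for Oasl1, 0.881 for Oasl2, 0.902 for Rsad2, 0.874 for Mx2, 0.866 for Ifi44, 0.875 for Ifi35, 0.934 for Psmb9 and 0.836 for Tap1, each high. In control replicate 4 it was 0.852 for Ifit1, 0.847 for Oas1a, 0.859 for Oasl1, 0.839 for Oasl2, 0.857 for Mx1 and 0.917 for Irgm1, and 0.854 for the median of the 37 genes, each high. In 40-week replicate 4 it was 0.838 for Rsad2, also high.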

How the results depend on the processing

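At 4 weeks no interferon response gene was called in any setting run, while the count over all genes, 222, became 666 with processed signals, 545 without background correction, 1237 in the deposited table and 394 with array weights. It became 67 with Cy5 alone and 0 with median centring, with scaling to 1 spread and after removal of control replicates 3 and 4 and 4-week replicate 2, the arrays holding transcripts from other organs; without 1 replicate at a time it was 0 to 52. At 40 weeks against control the members called, 0, became 1 with scaling to 1 spread or quantile normalisation (Iigp1), 3 with the 2 groups only, 2 with array weights (Mx2 and Bst2), 10 without those 3 arrays and 0 to 3 without 1 replicate at a time; Mx2, Bst2 and Eif2ak2 were called without 4-week replicate 2, Mx2 and Eif2ak2 without control replicate 4, and Ifit2 without control replicate 2 or 40-week replicate 2. At 40 against 4 weeks they became 2 with either scaling (Iigp1 and Tap1), 1 with the 2 groups only (Tap1), 2 with array weights, 14 without those 3 arrays and 0 to 3 without 1 replicate at a time, with Tap1 called without control replicate 1. Over all 20724 genes, the calls against control were 7731 with 1 spread, 7615 with quantile normalisation, 8859 with the 2 groups only and 10111 with array weights. They were 7496 without those 3 arrays and 7211 to 9250 without 1 replicate at a time. At 40 against 4 weeks the calls over all genes were 8025, 8160, 9463, 10309, 9429 and 7088 to 9151 in the same order. The median of the members at 4 weeks was -0.10 with array weights and -0.43 to 0.43 without 1 replicate at a time, and those at 40 weeks were -0.04 to 0.51 against control and -0.28 to 0.70 against 4 weeks. Replicate numbers do not pair the samples by the labels, and same-numbered control and 4-week arrays deviated together with correlations of -0.476 to 0.321. With the replicate block 0 genes were called at 4 weeks. The 40-week arrays have no scanner signal here, so depth limits cannot be given for them.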
